A study of Mus musculus with 4 samples.

Results

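The genes that encode the m6A writer machinery were examined as substrates of their own reaction, by asking which of their transcripts carried m6A peaks in mouse hematopoietic progenitors. The genes were Mettl3, Mettl14, Wtap, Zc3h13, Rbm15, Rbm15b, Cbll1 and Mettl16, which are 8 of 21951 protein-coding genes of the annotation, and they were chosen by function, with earlier results of these data known. A peak was given to a gene when its summit, the position of highest enrichment, lay in a GENCODE M21 exon of that gene. By this rule 13 of 15635 peaks in replicate 1 and 14 of 14872 in replicate 2 belonged to the writer genes.

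m6A meRIP-seq, in which fragmented RNA is captured with an antibody to N6-methyladenosine and sequenced, was performed on foetal liver cells of C57BL/6 mice that had been enriched for Kit with magnetic beads. Per the study's methods these were Ythdf2 CTL cells, that is Ythdf2 fl/fl without Cre, whose floxed allele makes a GFP-YTHDF2 fusion protein, and no other genotype or treatment was profiled. The series holds 4 samples, m6A IP replicates 1 and 2 and input replicates 1 and 2, and the methods call the replicates biological. The labels give total RNA for the IP samples and polyA RNA for the input samples, and neither the age of the embryos nor whether embryos were pooled is given in the sources used here. There was 1 group of samples with peak lists, so values are set side by side by replicate and no test between groups was possible.

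m6A is placed on nascent mRNA by METTL3, the catalytic subunit, paired with METTL14, which helps bind the RNA. WTAP anchors this pair in nuclear speckles together with VIRMA, ZC3H13 and CBLL1 (also called HAKAI), and RBM15 or RBM15B bring the complex to particular RNAs. METTL16 is a separate methyltransferase that modifies the U6 small nuclear RNA and the transcript of an S-adenosylmethionine synthetase. Sites are preferentially written in the DRACH context, 5 letters in which the methylated A is preceded by a purine, followed by C and then by any base but G, and whose first letter is any base but C. Of this context GGAC is the core of the most favoured form, and sites are common in long exons and near stop codons.

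Of the 8 writer genes, 6 had a peak in both replicates, namely Wtap, Zc3h13, Rbm15, Rbm15b, Cbll1 and Mettl16. Mettl3 and Mettl14, which encode the catalytic pair, had 0 peaks in either replicate. Among all protein-coding genes 34.4% had a summit in an exon in replicate 1, 33.5% in replicate 2 and 30.9% in both. Those shares count every annotated protein-coding gene, whether or not it was expressed in these cells, and expression was not analysed here. Set against them, 6 of 8 is therefore no measure of an excess of methylation. The count of 6 genes depended on the strength of peaks that was asked for. With fold enrichment of at least 4 it was 0 of the 8 genes, against 16.9% of all protein-coding genes in both replicates. The 6 genes were the same in each replicate, and 26 of their 27 peaks had a counterpart in the other list, with an overlap of 1 bp or more. Sharing was the rule in the whole lists too, at 80.6% (replicate 1) and 83.9% (replicate 2). The map of peaks along the transcripts shows where they lay.

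**Figure D1:**
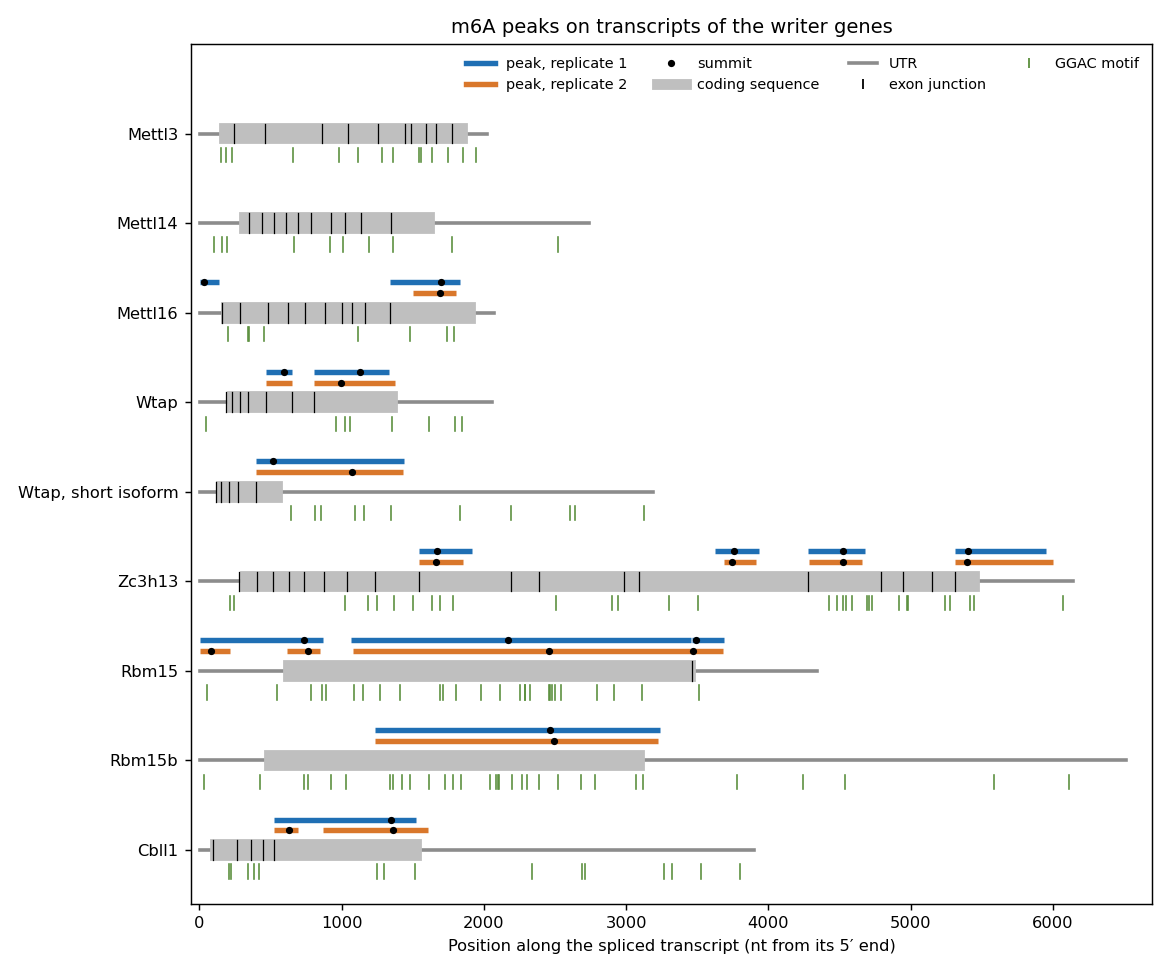
Each row is 1 spliced transcript drawn from its 5′ end (x axis, nt), with the coding sequence as a thick grey bar, untranslated regions as a thin line, exon junctions in black, GGAC motifs as green ticks below, and peaks of replicate 1 (blue) and replicate 2 (orange) above with summits as black dots. Mettl3 and Mettl14 have no bar above them, Rbm15 is covered over most of its length, and the peak of Wtap around exon 6 is drawn over its whole width only on the short isoform.

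The absence of peaks from the catalytic pair was looked at in more detail. No peak overlapped any exon or intron of Mettl3 (chromosome 14, 52294841 to 52305128, − strand) or Mettl14 (chromosome 3, 123368297 to 123386108, − strand) in either replicate, and the count was also 0 with all transcripts of the annotation. The nearest peak was 6733 bp from Mettl3 in replicate 1 and 6879 bp in replicate 2. For Mettl14 it was 418506 bp away in replicate 1 and 418474 bp in replicate 2. A peak needs both expression and methylation, input read counts were not analysed here, and a transcript with too few reads cannot be told apart from one without m6A.

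The sequence of Mettl3 was not poor in candidate motifs. Its 2025 nt transcript holds 14 GGAC, or 6.91 per kb, which is at the 90.3 percentile of protein-coding transcripts (median 4.0 per kb). Only 1 of these 14 lies in an exon of at least 400 nt, and the longest of its 11 exons is 405 nt, at the 15.6 percentile. In its transcript with the longest coding sequence, Mettl14 has 10 GGAC in 2741 nt (3.65 per kb), 3 of them in the last exon of 1394 nt. The longest of its 3 transcripts in the basic annotation is 7197 nt, and these motif counts leave it out. Whether motif number or exon length bears on the missing peaks was not tested.

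Wtap (chromosome 17, 12966796 to 12992546, − strand), the adaptor of the complex, had 2 peaks in each replicate. The first lay in exon 8 of 8 of the long isoform, which encodes 396 residues, spanning 12967526 to 12968148 in replicate 1 and 12967481 to 12968106 in replicate 2. Its fold enrichment, the ratio of IP signal to local background at the summit, was 4.06 in replicate 1 (95% counting interval 3.47 to 4.72) and 2.73 in replicate 2 (2.31 to 3.20), with −log10 q of 45.1 and 21.6. The −log10 q of replicate 1 was the highest of all writer peaks, at the 95.04 percentile of its list. The summits were 135 nt apart, both in coding sequence, at −258 and −393 nt from the stop codon (negative values are upstream). The intervals of fold enrichment did not overlap. They cover counting error of the IP reads only, with the background held fixed.

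The other Wtap peak crossed the end of exon 6. It covered 12974431 to 12975600 in replicate 1 and 12974440 to 12975593 in replicate 2, so its borders differed by fewer than 10 bp, while its summits were 552 nt apart. In the long isoform exon 6 is 179 nt and is spliced to exon 7, so most of this interval is intron there. In the short isoforms exon 6 is the last exon and 2790 nt long in one and 1923 nt in the other, and the coding sequence ends within it after 151 codons. The summit of replicate 1 was at −58 nt from this earlier stop codon and that of replicate 2 at 494 nt past it, in the 3′ UTR of the short isoforms. Fold enrichment was 2.02 (1.69 to 2.40) in replicate 1 and 3.65 (3.07 to 4.31) in replicate 2. The number of IP reads was alike, 130 and 137, whereas the background was 73.0 control reads at the summit in the coding part and 35.0 at the summit in the 3′ UTR. Whether the signal came from short isoforms or from unspliced RNA cannot be told apart with peak lists.

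The GGAC nearest to each Wtap summit where one lay within 100 nt is printed as a 25 nt window of the transcript, 5′ to 3′ in DNA letters, with the motif and the base after it in capitals, because the summits of the replicates pointed to different ones. The windows lie at chr17:12967788-12967812, chr17:12967819-12967843 and chr17:12974765-12974789 of GRCm38, − strand.
Wtap exon 8, replicate 1: tcccgccagaGGACGtctgggtctg
Wtap exon 8, replicate 2: tctggcaaatGGACCaagtaatggc
Wtap short isoform 3′ UTR, replicate 2: ataagactgtGGACTtcatgattgt
The A of the motif was at −72, 32 and 23 nt from the summit. The first ends in G and so is outside DRACH, the other two are DRACH sites. No GGAC lies in exons of the long isoform under the second peak of Wtap, where the closest motif to the summit of replicate 1 was a DRACH of the form AGACA, 2 nt away.

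Zc3h13 (chromosome 14, 75284373 to 75344426, + strand), a zinc finger protein that keeps the complex in the nucleus, had 4 peaks in each replicate, in exons 10, 14, 15 and 19 of 19, and each peak of one replicate matched exactly 1 of the other. Of protein-coding genes with a peak in both replicates, 10.5% had at least 3 summits in each replicate, as Zc3h13 and Rbm15 did. The exons with Zc3h13 peaks are 651, 1191, 513 and 833 nt long, and Zc3h13 has 5 exons of at least 400 nt in all. Summits of the replicates were 7, 9, 1 and 11 nt apart.

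In exon 10 (75323127 to 75323600 in replicate 1) fold enrichment was 2.90 in replicate 1 and 3.25 in replicate 2. In exon 14 (75330603 to 75330914) it was 2.16 and 1.89, and this was the writer peak closest to the calling limit, with −log10 q of 4.77 and 2.09. In exon 15 (75331691 to 75332101) it was 3.33 (2.82 to 3.92) and 1.99 (1.67 to 2.35). The intervals of the exon 15 peak did not overlap, and its replicates had 145 and 135 IP reads against 49.0 and 64.0 control reads. In exon 19 (75343502 to 75344233) fold enrichment was 2.46 and 3.16, and the summits were at −74 and −85 nt from the stop codon. The peak in exon 19 was the only one of Zc3h13 at the stop codon, and the others were in the body of the coding sequence.

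The sites of exons 15 and 19 are printed because the summits of both replicates had the same nearest GGAC, and that of exon 14 because it had no GGAC under it. Windows are 25 nt, at chr14:75331940-75331964, chr14:75343686-75343710 and chr14:75330705-75330729, + strand, with the 5 letter motif in capitals.
Zc3h13 exon 15: acagagaccgGGACAgaaggagaga
Zc3h13 exon 19: ccatgcccctGGACAggaaaagact
Zc3h13 exon 14: aggatgtgccTGACCgcacagaggg
In exon 15 the A was 5 and 4 nt after the summits of replicates 1 and 2, and in exon 19 it was 10 and 21 nt after them. In exon 14 the nearest GGAC was outside the peak, at −248 and −239 nt, and the TGACC shown was at −18 and −9 nt. In exon 10 the nearest GGAC differed between replicates (23 nt and −24 nt from the summit) although the summits were 7 nt apart, since they lay between 2 motifs.

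Rbm15 (chromosome 3, 107325421 to 107333673, − strand), an RNA-binding adaptor of the complex that is also needed in hematopoiesis, was the most heavily covered of the writer genes. It had 3 peaks in replicate 1 and 4 in replicate 2, which together covered 80.2% and 70.2% of its 4343 nt transcript and 26 and 24 of its 27 GGAC. The transcript has 2 exons, of which the first is 3459 nt long. A peak in the middle of exon 1 was 2387 bp wide in replicate 1 (107330219 to 107332605) and 2379 bp in replicate 2 (107330217 to 107332595), at the 99.8 percentile of width in each list, against median widths of 368 and 383 bp. Its fold enrichment was 4.35 (3.67 to 5.13) and 3.52 (2.93 to 4.20), and its −log10 q of 41.7 and 26.0. It holds 21 GGAC in each replicate, and the summits were 291 nt apart, so 1 summit does not stand for such a peak.

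At the 3′ side, a Rbm15 peak (107326077 to 107326457 in replicate 1) lay on the stop codon. Its fold enrichment was 4.40 and 3.10, and the summits were at 9 and −12 nt from the stop codon. At the 5′ side, replicate 1 had 1 peak from 107332808 to 107333940 with 4.28-fold enrichment. Replicate 2 had 2 peaks within the same interval, at 107332823 to 107333057 (3.27-fold) and 107333459 to 107333939 (3.67-fold). The first of these had its summit in the coding sequence, 172 nt past the start codon, and the second in the 5′ UTR, 82 nt from the annotated start of the transcript. Peaks of both replicates on this side reached upstream of the annotated transcript start at 107333673, so the distance from that start need not be the distance from the cap. Antibodies to m6A also bind m6Am next to the cap, and for a summit so near the annotated start both cannot be told apart. The difference in the number of Rbm15 peaks between replicates was therefore 1 joined peak, and not a region found in 1 replicate.

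Rbm15b (chromosome 9, 106880918 to 106887428, − strand), the paralog of Rbm15, has its whole transcript of 6511 nt in 1 exon, yet it had a single peak. The peak spanned 106884191 to 106886197 in replicate 1 and 106884202 to 106886194 in replicate 2. It lay mostly within the coding sequence and held 21 of the 32 GGAC. Fold enrichment was 2.62 (2.24 to 3.03) and 2.50 (2.13 to 2.91), on 173 and 159 IP reads, the most of any writer peak in each replicate. Its 3′ UTR of 3386 nt held 0 summits, and the peaks within 2000 bp of the gene lay in exons of its neighbours Dcaf1 and Manf. The paralogs thus shared a peak of about 2 kb in the coding sequence, and Rbm15 had further peaks at its start and stop codons.

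The sites at the start and stop codons of Rbm15, 1 from the middle of its exon 1 in replicate 2, and that of Rbm15b are printed to show the motifs nearest to the summits. Windows are at chr3:107332881-107332905, chr3:107326243-107326267, chr3:107331201-107331225 and chr9:106884897-106884921, − strand, with GGAC and the base after it in capitals.
Rbm15 start codon side: gtggcggtgaGGACTccagttctcg
Rbm15 stop codon side: aagctctaatGGACCtttttgaaga
Rbm15 exon 1, replicate 2: gctggtcactGGACAgggacagagg
Rbm15b: cgcaatcatcGGACCactgaggcag
Near the start codon the A was 44 and 15 nt after the summits of replicates 1 and 2, and near the stop codon 20 and 41 nt after them, in the 3′ UTR. In the middle of exon 1 of Rbm15 it was 2 nt after the summit of replicate 2. In Rbm15b it was 55 and 29 nt after the summits.

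Cbll1 (chromosome 12, 31484829 to 31499616, − strand), which encodes the RING finger protein HAKAI, carried its signal in the coding part of the last exon. In replicate 1 a single peak from 31487316 to 31488381 had 4.60-fold enrichment (3.79 to 5.52) with −log10 q of 35.4. In replicate 2 this peak overlapped 2 peaks, from 31487226 to 31487965 with 3.68-fold enrichment (3.01 to 4.45) and from 31488144 to 31488345 with 2.70-fold (2.1 to 3.42). The stronger summits were 15 nt apart, at −208 and −193 nt from the stop codon. A gene on the opposite strand, Gm29542, has an exon at these summits, and because the lists carry no strand the 2 peaks cannot be assigned to one of the genes. The weaker peak of replicate 2 was in Cbll1 alone, and no writer peak other than these 2 lay in an exon of another gene. The GGAC nearest to both stronger summits is printed with the base after it in capitals (chr12:31487528-31487552, − strand), and its A was at −51 and −66 nt.
Cbll1: tcctcctccaGGACCccctccacct
The 3′ UTR of Cbll1, 2343 nt long with 7 GGAC, had 0 summits.

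Mettl16 (chromosome 11, 74770830 to 74828525, + strand), the methyltransferase that acts outside the complex, had 1 peak found in both replicates and 1 found only in replicate 1. The shared peak was coding, in the last of 11 exons, and covered 74817158 to 74817652 in replicate 1 and 74817324 to 74817623 in replicate 2. Fold enrichment was 2.11 (1.78 to 2.48) and 2.08 (1.74 to 2.46), the closest match between replicates among the writer peaks, and the summits were 7 nt apart at −236 and −243 nt from the stop codon. Its enrichment was low for its list (at percentiles 6.19 and 5.64) but rested on 141 and 130 IP reads (percentiles 92.3 and 90.5) over 76.0 and 59.0 control reads.

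The second Mettl16 peak, 74770765 to 74770964 in replicate 1, had its summit in the 5′ UTR, 31 nt from the annotated transcript start. The peak itself began upstream of that start. It had the highest fold enrichment of all writer peaks, 6.28, but with an interval of 3.31 to 11.1. It rested on 10 IP reads over a background of 0.860 control reads, the lowest of any. It was the only writer peak without a counterpart in the other replicate and the only one without a DRACH within 50 nt, and m6A and m6Am cannot be told apart there either. The window of the shared peak is printed because its nearest GGAC is not a DRACH site.
Mettl16 exon 11, nearest GGAC: atggagcccaGGACGgagaggcttc
Mettl16 exon 11, nearest DRACH: tgccaggaggAGACTcccgaggcca
The GGACG (chr11:74817550-74817574) was 42 and 49 nt after the summits and the AGACT (chr11:74817459-74817483) was at −49 and −42 nt, so the summits of both replicates lay between them.

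The writer peaks were then compared with the lists they came from. Median fold enrichment was 3.33 in replicate 1 (range 2.02 to 6.28, n = 13 peaks) and 3.13 in replicate 2 (1.89 to 3.68, n = 14), against 4.47 and 4.76 over all peaks and 4.18 and 4.39 over peaks in exons. In replicate 1, 11 of 13 and in replicate 2, 14 of 14 writer peaks were below the median of their list. Their IP reads were not few. IP reads at the summit had medians of 130 and 112.5, against 57 over all peaks in each replicate, and 10 of 13 and 11 of 14 writer peaks were above that. The background was higher as well, with medians of 37.0 and 29.1 control reads against 13 and 10 over all peaks. On a higher background a peak can pass the calling limit at a lower fold enrichment. Ranks of fold enrichment, and a minimum fold, are therefore not like for like between the writer peaks and the lists. The −log10 q, which takes both IP reads and background into account, had medians of 18.5 and 11.9, on either side of the 14.98 and 14.85 of the lists. Peaks of 1 gene share its expression level, so these are values of 6 genes rather than of 27 independent peaks.

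**Figure D2:**
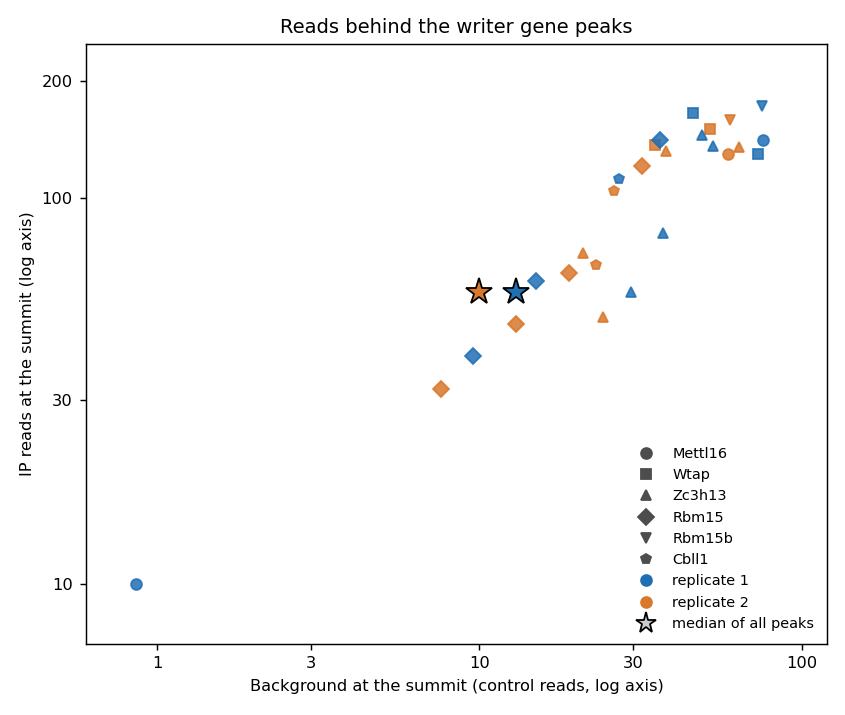
IP reads at the summit (y axis, log scale) against the background in control reads (x axis, log scale) for the 27 writer peaks, with colour for the replicate, shape for the gene, and stars at the medians of all peaks of each replicate (57 IP reads over 13 and 10 control reads). Most writer peaks sit above and to the right of the stars, and the 5′ UTR peak of Mettl16 stands apart at 10 IP reads.

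**Figure D3:**
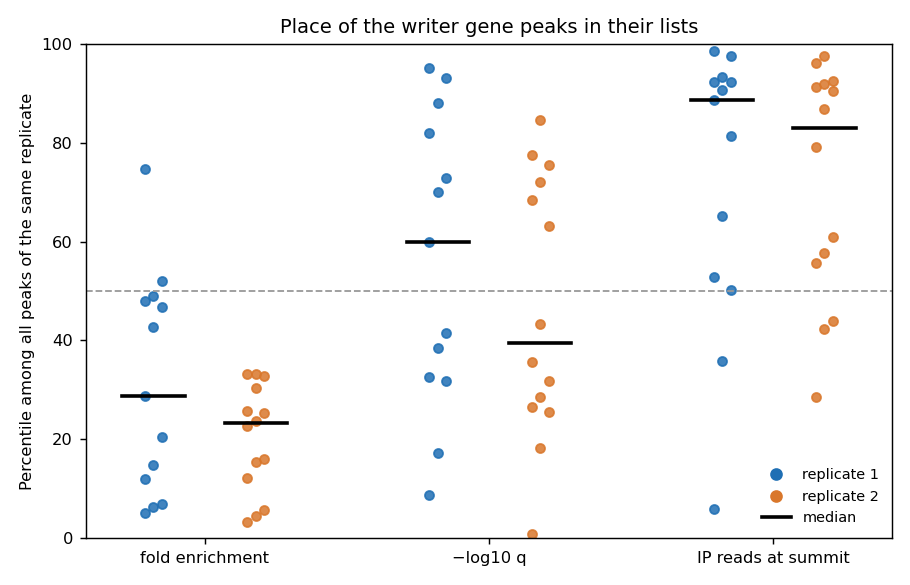
Percentile of each writer peak among all peaks of its own replicate (y axis) for fold enrichment, −log10 q and IP reads at the summit, with replicate 1 in blue, replicate 2 in orange, black bars at the medians and a dashed line at the middle of the list. Fold enrichment is mostly in the lower part of the list (median percentile 28.7 and 23.2) and IP reads mostly in the upper part (88.6 and 83.1).

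Agreement between replicates was assessed in the 10 pairs of writer peaks that matched one to one. The log2 ratio of fold enrichment, replicate 2 over replicate 1, had a median of −0.13 and ran from −0.74 in exon 15 of Zc3h13 to 0.85 in exon 6 of Wtap. Its SD was 0.48, close to the 0.47 of all 11524 such pairs in the lists. Fold enrichment was lower in replicate 2 in 7 of 10 pairs and higher in 3, and it was lower in 48.4% of all pairs. Counting intervals were apart in 3 of 10 pairs, both of Wtap and exon 15 of Zc3h13, against 8.99% of all pairs. Intervals narrow as IP reads rise, and writer peaks had more of them than the lists, so these shares are not like for like. The Wtap pairs also had summits 135 and 552 nt apart, so their values are not of 1 position. The median distance between summits was 16 nt, as in all pairs.

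**Figure D4:**
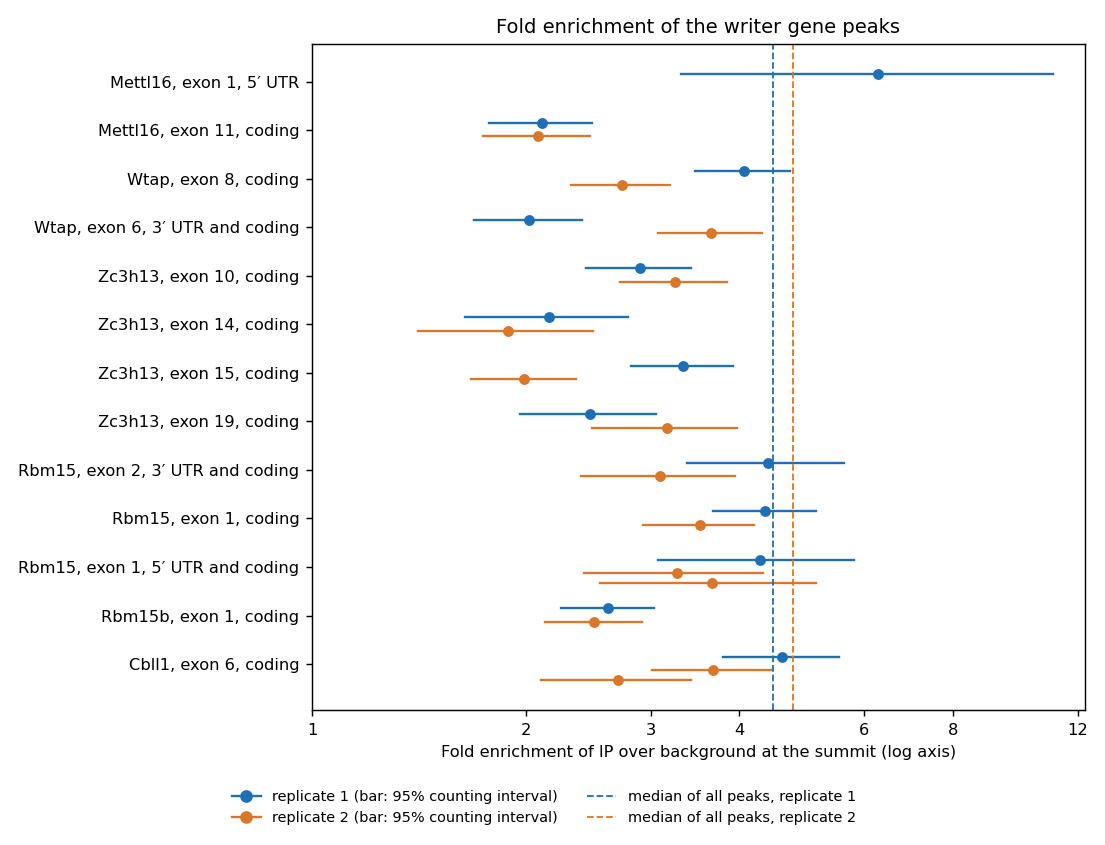
Fold enrichment at the summit (x axis, log scale) of each peak region of the writer genes (rows), as points for replicate 1 (blue) and replicate 2 (orange) with bars for the 95% counting interval of the IP reads, and dashed lines at the medians of all peaks (4.47 and 4.76). Bars of the replicates are apart in both Wtap regions and in exon 15 of Zc3h13, and in the weaker peak of replicate 2 in Cbll1.

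Along the transcript, the writer peaks lay mainly in coding sequence. Of 27 summits, 23 (85.2%, exact 95% interval 66.3 to 95.8) were in the coding sequence, 2 in a 3′ UTR and 2 in a 5′ UTR. Over all summits placed on 1 protein-coding transcript, 56.4% in replicate 1 and 55.9% in replicate 2 were in coding sequence. Placed summits leave out those in exons of more than 1 gene or off the transcript with the longest coding sequence. The writer shares keep such summits, 2 of Cbll1 and the replicate 2 summit of the second Wtap peak, so the 2 sets were not selected alike. Within 200 nt of the stop codon there were 5 of 27 (18.5%, 6.30 to 38.1), from Zc3h13, Rbm15 and Cbll1, against 30.7% and 29.8% of all placed summits. Further summits of Mettl16, Wtap and Cbll1 lay between −208 and −393 nt from the stop codon, and within 400 nt the share was 37.0%, against 43.0% and 42.2%. Long exons, of 400 nt or more, had 25 of 27 summits, against 86.7% and 86.8%, and last exons 14 of 27 (51.9%), against 61.6% and 61.1%. These totals score the second Wtap peak on the long isoform in replicate 1 and on a short isoform in replicate 2. On the short isoforms its replicate 1 summit was at −58 nt from the stop codon, in a long last exon. Scored there, it would raise the stop codon, long exon and last exon counts. The intervals treat peaks as independent, which those of 1 gene are not. They also pool the replicates, although 26 of 27 peaks overlap a peak of the other replicate, so they are too narrow. By replicate, coding sequence had 11 of 13 summits (54.6 to 98.1) and 12 of 14 (57.2 to 98.2). The shares of long and last exons were near those of the lists.

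The letters around the summits were searched on the strand of the transcript. A GGAC had its A within 50 nt of 17 of 27 writer summits (63.0%, 42.4 to 80.6), 6 of 13 in replicate 1 and 11 of 14 in replicate 2, against 57.0% and 56.7% of all placed summits. As above, placed summits leave out kinds of summit that the writer shares keep, and the pooled interval is too narrow. Within 25 nt the share was 37.0%, against 36.0% and 36.6%. A DRACH lay within 50 nt of 26 of 27 (96.3%), but also of 93.9% of all placed summits in each replicate, so its presence sets no summit apart.

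Other genes of the pathway were counted from a list chosen with earlier results of these data known. Virma, a scaffold subunit of the complex, had 4 peaks in each replicate, with fold enrichment of 3.45 to 5.34 in replicate 1 and 4.13 to 5.29 in replicate 2. Of the 18 genes listed (Virma, the m6A erasers, YTH and IGF2BP readers, hnRNP readers, other RNA methyltransferases and a methyltransferase partner), 14 had a summit in both replicates, 2 in one and 2 in neither. The 2 with a summit in 1 replicate were Ythdc1 and Ythdc2, which encode a nuclear YTH reader and one known for its part in meiosis. Of all protein-coding genes, expressed or not, 30.9% had a summit in both replicates, and of the writer genes 6 of 8. By this count of genes with any peak, the writer genes did not stand out from the listed genes of the pathway. Peak strength was not compared between the writer genes and the 18 listed genes. Against the label of Kit+ foetal liver cells, 6 of 8 stem and progenitor genes had a peak in both replicates and 2 (Kit and Myb) had none, which for the reason given above does not show that they were absent. Of 4 hepatocyte genes Apoa1 had a peak in both replicates and Afp in 1, while Alb and Ttr had none. Of 4 erythroid genes 2 had a peak in both, and of 2 macrophage genes 1. The 30.9% of all protein-coding genes is the share to set beside these small lists as well.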

How the data were processed

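m6A IP and input libraries of Kit+ foetal liver cells were sequenced in 2 replicates each. Per the labels and the study's methods, the authors aligned reads to GRCm38 (mm10) with HISAT2 and called peaks with MACS2 2.1.1.20160309 (nomodel), 1 list per IP replicate. The threshold, control library and effective genome size are not given in the sources used here. The deposited fold enrichment is the ratio of IP signal to local background at the summit, the deposited −log10 p-value and −log10 q-value belong to the same position, the deposited score is the whole part of 10 times −log10 q, and a deposited offset gives the summit. Lowest −log10 q was 1.31 and 1.30. Total library depth is unknown from these files.

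Summits were assigned to exons of the basic GENCODE M21 set (55450 genes) with Python 3.11.15, numpy 2.4.6 and scipy 1.17.1. Positions refer to the transcript with the longest coding sequence, or to another isoform where only that holds the summit. A summit was placed on a transcript when it lay in exons of exactly 1 gene, that gene was protein-coding, and its transcript with the longest coding sequence held the summit. This gave 10830 and 10465 summits. Coordinates count the first base of a chromosome as 1. IP reads and background at each summit were computed from fold enrichment and p-value, since MACS2 takes the former as (IP + 1)/(background + 1) and the latter from the upper Poisson tail. Control reads stand for this local background in units of control reads. The background can come from a window wider than the summit, so it is not always a whole number or a count at the summit. A whole number of IP reads matched 100% of peaks within 0.001 in −log10 p, after scaling of control by 0.874 in replicate 1 and of IP by 0.952 in replicate 2. Counting intervals are exact Poisson intervals of the IP reads, and intervals of shares are exact binomial (Clopper-Pearson), both at 95%. The steps were tested on simulated data. All 8 writer genes are named with every peak, Virma once, and of the other m6A genes only those with a summit in 1 replicate. Genes of the cell type check are named where they bear on the label. Members and lists were chosen with earlier results of these data known. Sequences are from the GENCODE M21 transcripts, and for the flank of Rbm15 from the GRCm38 genome. Peaks in exons only were described, and alternatives of overlap, window, annotation and threshold were recomputed.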

Additional observations from a re-analysis of the deposited data

Results flagged for a closer look

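A peak just past the annotated end of Rbm15 was outside the exon rule and enters none of the values above. It ran from 107324874 to 107325411 on chromosome 3 in replicate 1 and from 107324916 to 107325408 in replicate 2, which is 10 and 13 bp beyond the last annotated base. Fold enrichment was 6.96 (95% counting interval 4.93 to 9.56) and 6.70 (4.91 to 8.94), with 36 and 44 IP reads against a background of 4.94 and 5.40 control reads. This was above that of all 27 exonic writer peaks. It lies in no GENCODE exon, but within exons of predicted non-coding Rbm15 transcripts of RefSeq, 1 of which spans 107324752 to 107326304. The peak holds 0 GGAC on the strand of Rbm15, and the DRACH closest to both summits (motif in capitals, chr3:107325271-107325295, − strand) was at −69 and −3 nt.
Rbm15 flank: gtgccttattTGACCtgtggttcca
Whether this peak belongs to a longer 3′ end of Rbm15 was not tested.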

How the results depend on the processing

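A count was taken as kept within 1.5 times, and a share or median within 1 SD of the replicates. That SD comes from 2 values, so a measure on which the replicates differed more was allowed to move more. The GGAC share, with an SD of 22.9, counted as kept at 81.5% within 100 nt. Of 27 alternatives, 18 kept the value and 9 moved it. The number of writer genes with a peak in both replicates, 6, was 6 in replicate 1 alone and 6 in replicate 2 alone, 5 without summits in exons of another gene (Cbll1 dropped out), and 0 with fold enrichment of at least 4 (16.9% of all protein-coding genes), which left 6 of 27 peaks, all in replicate 1, and so a shared share of 0%. The shared share of 96.3% was 81.5% with 50% reciprocal overlap and 66.7% with summits within 100 bp. Shares over all peaks are given only for an overlap of 1 bp (80.6% and 83.9%). The stricter values therefore cannot be compared with the lists. GGAC near the summit, 63.0%, was 37.0% within 25 nt and 96.3% for DRACH. Summits at the stop codon, 18.5%, were 37.0% with 400 nt. Median fold enrichment, 3.16 over both lists, was 3.43 for the strongest peak of each gene and replicate. No paired analysis was possible because the input samples, which share the replicate numbers of the IP samples, have no values here to set against them. The number of libraries (2) and the reads behind each peak limit these values.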
